A study of Homo sapiens with 26 samples.

Results

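The genes described here are the transcription factors that drive epithelial-mesenchymal transition (EMT) and the epithelial splicing regulatory proteins (ESRPs). They are ZEB1, ZEB2, SNAI1, SNAI2, TWIST1, ESRP1 and ESRP2, 7 of the 19128 genes in the knockout tables, chosen by name and not by their values. All 7 are also among the 19117 genes of the parental table. The series sequenced polyA RNA from human small cell lung cancer lines, 26 libraries in all. In the knockout experiment, NCI-H526, NCI-H211, NCI-H1048 and COR-L311 were infected by lentivirus with a control guide RNA (sgNeg) or with either of 2 guides against POU2F3 (sgPOU2F3e10.1 and sgPOU2F3e10.2), a transcription factor of tuft cells. NCI-H211 and NCI-H1048 were harvested on day 4 after infection, NCI-H526 and COR-L311 on day 5, so harvest day and line cannot be told apart. In the deposited tables the 2 guides share 1 sgPOU2F3 column per line, so each line and arm has 1 value. The labels do not say whether infected cells were selected or cloned. A second set holds 1 library each from 14 uninfected, exponentially growing parental lines. They are the 4 knockout-set lines and 10 others, DMS114, DMS79, NCI-H128, NCI-H146, NCI-H446, NCI-H510, NCI-H524, NCI-H69, NCI-H82 and NCI-H889. Culture medium differed between lines, with NCI-H1048 grown in HITES and NCI-H128 in RPMI with more serum than the rest. All are small cell lung cancer lines, a cancer usually of neuroendocrine character.

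In EMT, epithelial cells lose their junctions and gain the shape and motility of mesenchymal cells. The zinc finger proteins ZEB1, ZEB2, SNAI1 (Snail) and SNAI2 (Slug) bind the E-box letters CACCTG and repress genes of cell junctions such as CDH1, which encodes E-cadherin, while TWIST1 is a basic helix-loop-helix factor that also binds E-boxes. ESRP1 and ESRP2 are RNA-binding proteins that set the epithelial splice forms of transcripts such as FGFR2 and CD44, and ZEB factors are known to repress them. The tables give 1 value per gene, so they hold levels of the ESRPs and not the splice forms that these proteins set.

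The E-box is shown here in the 250 bases before annotated start sites, since it is the letter string that the ZEB and SNAI proteins read. RefSeq promoter sequences (GRCh38.p14) were matched for 2 of the 7 genes, ZEB1 with 7 start sites and ZEB2 with 1. CRB3, an epithelial polarity gene and known ZEB1 target, is set beside them. Capitals mark CACCTG or its reverse complement CAGGTG, and each sequence runs 5′ to 3′ on the gene's own strand. The windows are chr10:31318966-31319215 on the plus strand for ZEB1, chr2:144520120-144520369 on the minus strand for ZEB2 and chr19:6464021-6464270 on the plus strand for CRB3.
ZEB1: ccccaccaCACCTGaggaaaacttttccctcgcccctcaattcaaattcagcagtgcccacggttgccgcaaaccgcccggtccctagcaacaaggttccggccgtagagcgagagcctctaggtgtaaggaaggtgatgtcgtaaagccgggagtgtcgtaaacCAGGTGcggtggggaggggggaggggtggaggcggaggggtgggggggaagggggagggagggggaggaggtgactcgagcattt
ZEB2: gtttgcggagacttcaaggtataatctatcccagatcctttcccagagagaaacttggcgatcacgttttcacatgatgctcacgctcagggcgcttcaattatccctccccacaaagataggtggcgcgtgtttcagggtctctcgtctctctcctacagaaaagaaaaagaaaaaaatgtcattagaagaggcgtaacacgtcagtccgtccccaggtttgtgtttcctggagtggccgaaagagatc
CRB3: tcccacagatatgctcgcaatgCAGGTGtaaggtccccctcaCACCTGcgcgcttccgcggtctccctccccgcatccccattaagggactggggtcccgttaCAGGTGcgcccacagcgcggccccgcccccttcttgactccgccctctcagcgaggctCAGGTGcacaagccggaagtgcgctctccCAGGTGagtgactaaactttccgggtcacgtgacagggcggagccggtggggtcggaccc
This ZEB1 window, the one with the most E-boxes of the 7 ZEB1 start sites, holds 2, which begin 242 and 85 bases before the start. Another ZEB1 window holds 1 and the remaining 5 hold 0. The CRB3 window holds 5 and the ZEB2 window 0. At least 1 such E-box lies in 17.5% of the 35116 promoter windows of this length, so a match describes the letters and not a bound site. No binding was measured.

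By the GENCODE annotation on GRCh38 (the tables themselves were made on hg19 per the submitters' processing notes), ZEB1 lies on chromosome 10 from 31318495 to 31529814. ZEB2 lies on chromosome 2 from 144364364 to 144524583, SNAI1 on chromosome 20 from 49982999 to 49988886 and SNAI2 on chromosome 8 from 48917604 to 48921740. TWIST1 lies on chromosome 7 from 19020991 to 19117672, ESRP1 on chromosome 8 from 94641074 to 94707466 and ESRP2 on chromosome 16 from 68229111 to 68238102. Antisense genes overlap ZEB1 (ZEB1-AS1), ZEB2 (ZEB2-AS1) and TWIST1, and NFATC3 overlaps ESRP2 on the opposite strand. The protocol does not mention strand, so reads of these overlapping genes cannot be told apart.

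Values are FPKM, that is, fragments counted per kilobase of a transcript and per M fragments mapped (M, mega). Ratios and differences are on the scale log2(FPKM + 1), which understates the change of genes near 0. Depth, estimated from the smallest steps between values, was 9.33 to 15.5 M fragments in the sgNeg columns, 17.8 to 29.5 M in the combined sgPOU2F3 columns and 9.77 to 30.9 M in the parental libraries. At these depths 1 fragment in a 3-kb transcript is worth 0.0108 to 0.0357 FPKM. POU2F3 was lower in the sgPOU2F3 column of 4 of 4 lines, at 6.95% of its sgNeg level in NCI-H211, 30.7% in NCI-H1048, 40.7% in NCI-H526 and 80.4% in COR-L311. These are levels of RNA and do not give the loss of the protein. The 12 tuft cell markers, POU2F3 among them, had median log2 ratios of -2.92, -1.38, -0.87 and -0.76 in the same order. Among markers of other cell types, the 8 of blood cells summed to 1.90 to 11.01 FPKM in sgNeg and 2.35 to 8.82 in sgPOU2F3. Of these, CD14 reached 4.32 FPKM and CD68 6.75, both in COR-L311, HBB was listed at 0 in all 8 columns and PTPRC did not exceed 0.0682 FPKM. The 6 endothelial markers summed to 0.0718 to 2.50 FPKM in sgNeg and 0.103 to 2.43 in sgPOU2F3, and the 8 fibroblast markers to 0.129 to 10.9 and 0.855 to 16.9.

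Across the parental lines, ESRP1 was the highest of the 7 genes in 9 of the 10 lines where it was well expressed, and the 4 remaining lines were led by ZEB1, ZEB2 or SNAI1. ESRP1 fell into 2 clusters with nothing between 2.56 and 27.0 FPKM. Each line has 1 library, so neighbouring levels in an order have no spread of their own. As a guide to that spread, parental and sgNeg values of the same line differed by a median of 0.26 on the log2 scale over 28 pairs of values. The largest of these differences was 1.89, for TWIST1 in NCI-H211, and 1 pair reached 1. These pairs also differ in infection and in the normalization of their tables. Some were listed at 0 in both, which lowers the median, whereas the SNAI1 pairs differed by 0.32 to 0.97. The pairs are thus a rough guide only, and no gap between neighbours in the orders below was tested, whether smaller or larger than these differences.

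**Figure D1:**
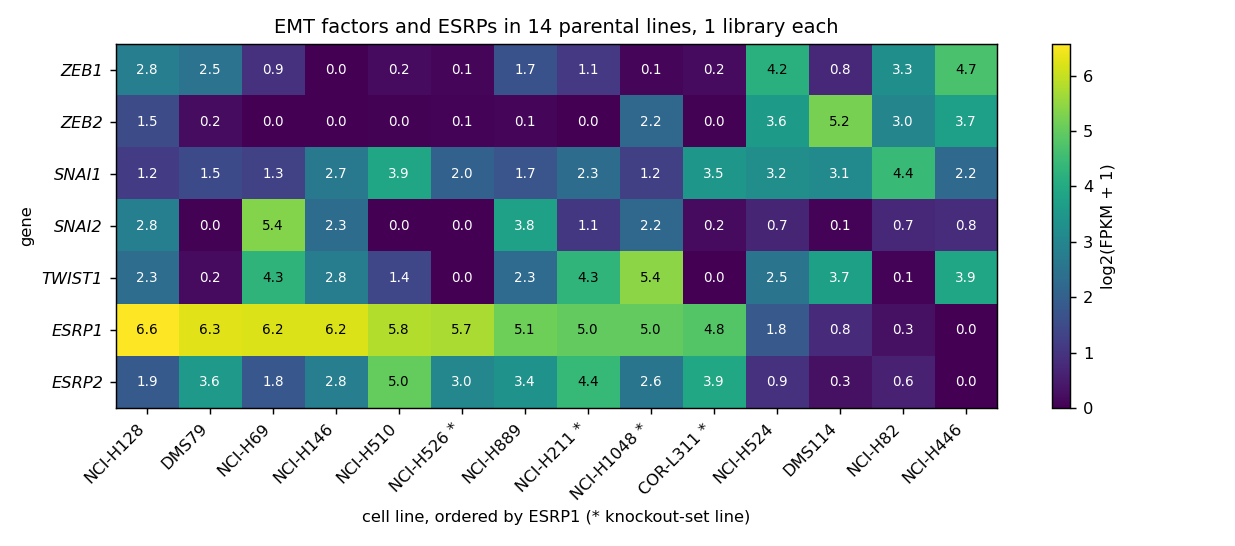
Level of the 7 genes (rows) in the 14 parental lines (columns, ordered by ESRP1), as log2(FPKM + 1) in colour and in each cell, with 1 library per line and an asterisk on the 4 knockout-set lines. ESRP1 is high in the 10 lines at the left and low in NCI-H524, DMS114, NCI-H82 and NCI-H446 at the right, where ZEB2 is between 6.97 and 36.4 FPKM.

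ESRP1, the more abundant of the ESRP genes in most of these lines, was highest in NCI-H128 at 94.0 FPKM, followed by DMS79 at 76.1, NCI-H69 at 73.7, NCI-H146 at 73.6 and NCI-H510 at 54.9. The 4 knockout-set lines lay below these, at 52.6 FPKM in NCI-H526, 30.9 in NCI-H211, 30.7 in NCI-H1048 and 27.0 in COR-L311, with NCI-H889 among them at 34.0. In the last 4 lines it was 2.56 FPKM in NCI-H524, 0.722 in DMS114, 0.218 in NCI-H82 and 0.0119 in NCI-H446. ESRP1 was therefore expressed in all 4 knockout-set lines and within a narrow range there.

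ESRP2, the paralog that shares much of the splicing activity of ESRP1, had a different order in the lines that expressed it. It was highest in NCI-H510 at 31.6 FPKM, NCI-H211 at 20.0, COR-L311 at 14.3, DMS79 at 10.8 and NCI-H889 at 9.41. NCI-H526 had 7.28 FPKM, NCI-H146 6.07, NCI-H1048 4.90, NCI-H128 2.63 and NCI-H69 2.43. The line with the most ESRP1, NCI-H128, was thus among the lowest of these for ESRP2. ESRP2 was below 1 FPKM in the same 4 lines that had little ESRP1, at 0.905 in NCI-H524, 0.512 in NCI-H82, 0.221 in DMS114 and 0.0126 in NCI-H446.

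ZEB2, a repressor of epithelial genes, was high where the ESRPs were low. It stood at 36.4 FPKM in DMS114, 12.0 in NCI-H446, 10.9 in NCI-H524 and 6.97 in NCI-H82, above all 10 other lines. Of those 10, NCI-H1048 had 3.62 FPKM and NCI-H128 had 1.85. The other 8 lines were at or below 0.156 FPKM, with NCI-H146 and NCI-H211 listed at 0.

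ZEB1, its paralog, did not divide the lines in the same way. It was highest in NCI-H446 at 24.9 FPKM, NCI-H524 at 16.9 and NCI-H82 at 8.74, but DMS114, with the most ZEB2, had 0.688. Lines with high ESRP1 also carried ZEB1, at 5.98 FPKM in NCI-H128, 4.70 in DMS79 and 2.16 in NCI-H889. Among the knockout-set lines NCI-H211 had 1.11 FPKM of ZEB1 and the other 3 had 0.134 or less. In NCI-H69 it was 0.924 FPKM and in NCI-H510 0.147, and it was listed at 0 in NCI-H146.

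**Figure D2:**
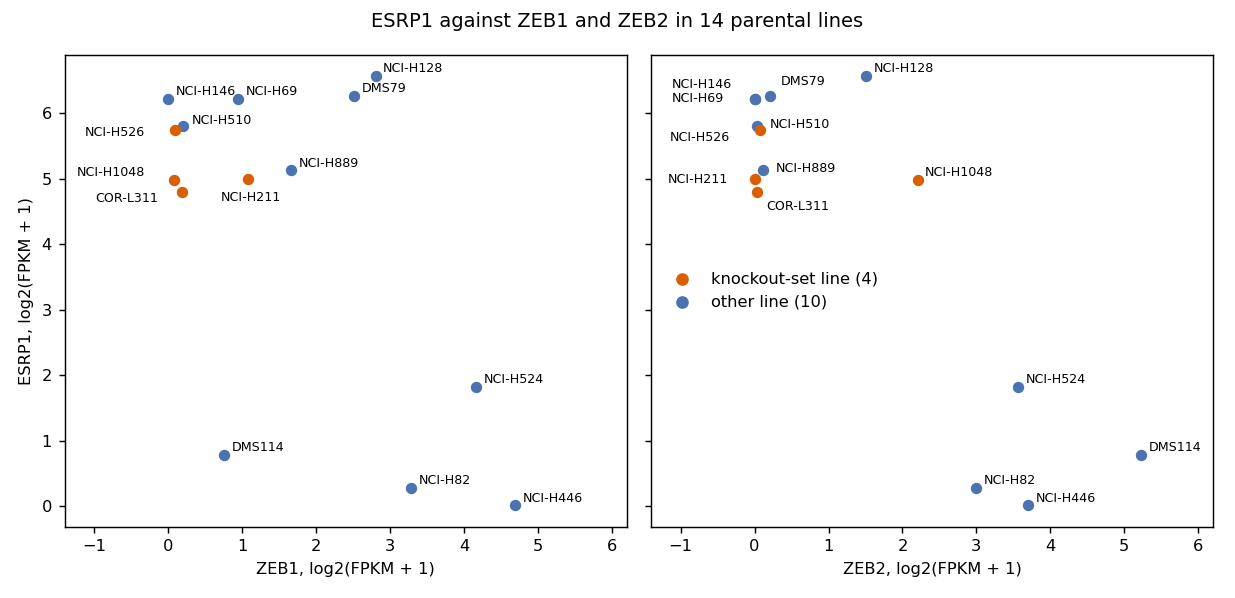
ESRP1 (vertical axis) against ZEB1 (left) and ZEB2 (right) in the 14 parental lines, all as log2(FPKM + 1), 1 point per line, orange for the 4 knockout-set lines and blue for the 10 others. The 4 lines at the bottom of each panel have the highest ZEB2, whereas DMS114 sits there with 0.688 FPKM of ZEB1 and NCI-H128 and DMS79 sit at the top with 5.98 and 4.70.

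The plot of ESRP1 against the ZEB genes shows 2 groups of points rather than a slope, so no correlation is given over all 14 lines. Within the 10 lines with ESRP1 above 20 FPKM, a division made after the values were seen, Pearson's r of ESRP1 was -0.03 with ZEB2 and 0.44 with ZEB1. For ESRP2 the same 10 lines gave -0.47 with ZEB2 and -0.26 with ZEB1, and ESRP1 with ESRP2 gave -0.47. These describe 10 lines from 1 laboratory and 1 table and carry no test. E-cadherin (CDH1), the classical target of ZEB and SNAI repression, was 0.119 FPKM in DMS114, 0.0494 in NCI-H524, 0.0223 in NCI-H82 and 0.0089 in NCI-H446. In the 10 other lines CDH1 ran from 4.62 FPKM in NCI-H69 to 114 in NCI-H510. CRB3, whose E-boxes are printed above, was 0.306 FPKM or less in those 4 lines, but it was also low in NCI-H128 at 0.0903, NCI-H889 at 0.170 and NCI-H69 at 0.561. Of these 3 lines NCI-H128 and NCI-H889 expressed ZEB1 above 2 FPKM, and NCI-H69 did not.

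SNAI1, which encodes Snail, was the only one of the 7 genes at 1 FPKM or more in all 14 lines. It was highest in NCI-H82 at 20.6 FPKM, NCI-H510 at 13.6 and COR-L311 at 10.2, then 8.51 in NCI-H524, 7.86 in DMS114 and 5.34 in NCI-H146. NCI-H211 had 4.01 FPKM, NCI-H446 3.74, NCI-H526 3.11 and NCI-H889 2.31. The lowest were DMS79 at 1.78, NCI-H69 at 1.40, NCI-H1048 at 1.36 and NCI-H128 at 1.25. SNAI1 was thus high in lines from each side of the ESRP1 division, such as NCI-H82 and NCI-H510.

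SNAI2, which encodes Slug, was abundant in few lines. It was 40.1 FPKM in NCI-H69, 12.5 in NCI-H889, 6.10 in NCI-H128, 3.98 in NCI-H146, 3.70 in NCI-H1048 and 1.09 in NCI-H211. The other 8 lines were at 0.789 FPKM or less, with NCI-H510 and NCI-H526 listed at 0. NCI-H69, NCI-H889 and NCI-H128 had low SNAI1, and NCI-H82 and NCI-H510, with the most SNAI1, had 0.657 FPKM and 0 of SNAI2. Over the 14 lines SNAI1 and SNAI2 had a Pearson r of -0.58 (Spearman -0.51, and -0.58 without the 2 lines farthest from the SNAI1 median).

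TWIST1 varied over the widest range within the knockout set. It was 41.8 FPKM in NCI-H1048, the highest of all 14 lines and the highest of the 7 genes in that line, and 18.7 in NCI-H211, while COR-L311 and NCI-H526 were listed at 0. Among the other lines it was 18.3 FPKM in NCI-H69, 13.9 in NCI-H446, 12.3 in DMS114 and 5.83 in NCI-H146. NCI-H524 had 4.76, NCI-H128 4.06, NCI-H889 3.93 and NCI-H510 1.63 FPKM. DMS79 had 0.151 and NCI-H82 0.0451 FPKM, so TWIST1 was scarce in 1 of the lines without ESRP1 and present in the other 3.

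The parental comparison set the 4 knockout-set lines, which express POU2F3, against the 10 others, which have at most 0.608 FPKM of it. None of the 7 genes passed, against 0.25% of 13226 genes tested (limma, Benjamini-Hochberg adjusted p under 0.05), and the groups overlapped for all 7. Over all genes tested, the 4 lines lay wholly above the 10 others for 0.401% and wholly below them for 0.25%. ZEB1 had a median of 0.0988 FPKM in the 4 lines and 3.43 in the 10, a log2 difference of -1.74 ± 0.78 (SE, limma adjusted p = 0.55), and it alone had an unadjusted p under 0.05, as had 4.06% of genes in the lower direction. ESRP2 had medians of 10.8 and 2.53 FPKM, a difference of 1.46 ± 0.79 (SE, limma adjusted p = 0.66). The 4 lines had at least 4.90 FPKM of ESRP2, a level that 4 of the 10 others reached as well.

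ESRP1 differed by 1.22 ± 1.26 on the log2 scale (SE, limma adjusted p = 0.85), ZEB2 by -1.16 ± 0.95 and SNAI2 by -0.79 ± 0.89. SNAI1 differed by -0.25 ± 0.61 and TWIST1 by 0.08 ± 1.0, and the sign of these last depended on single lines. Without NCI-H1048 the SNAI1 difference was 0.09 and the TWIST1 difference -0.92, and the TWIST1 difference was also below 0 without NCI-H211, DMS79, NCI-H510 or NCI-H82. The spread of ESRP1 differed visibly between the groups, with an SD of 0.42 in the 4 lines and 2.80 in the 10 on the log2 scale. The 10 others include all 4 lines with little ESRP1.

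The genes nearest to each of the 7 by Pearson's r of log2(FPKM + 1) over the 14 lines were taken from 8750 genes that passed the filter and varied by at least 2 on the log2 scale. Picking the extremes of so many genes over 14 lines gives high r by selection alone, and its part in the values below was not tested. For ESRP1 the nearest were OVOL2 (0.97), a zinc finger factor that opposes EMT, AP1M2 (0.97), an adaptor of polarized sorting in epithelia, and KDF1 (0.96). OVOL2 was 14.7 FPKM or more in the 10 lines with ESRP1 and 2.25 or less in the 4 without. Within those 10 lines the r was 0.52 for OVOL2, 0.64 for AP1M2 and 0.26 for KDF1, so the likeness rests largely on the division between the clusters. The lowest r were those of ST3GAL2 (-0.89), which was 0.42 within the 10 lines, and LPAR3 (-0.87).

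For ESRP2 the nearest were CDH1 (0.94), CYB561 (0.93) and the simple epithelial keratin KRT18 (0.92), and within the 10 lines these were 0.80, 0.91 and 0.73. ZEB2 lay toward the opposite end for ESRP2, with an r of -0.84. ZEB2 was nearest to FSTL1 (0.88), a secreted glycoprotein of mesenchymal cells, PRRT1 (0.87) and KCNG1 (0.86), and most opposite to MAPK13 (-0.93) and the keratin KRT8 (-0.93). KRT8 was 0.600 FPKM or less in DMS114, NCI-H524, NCI-H82 and NCI-H446 and 28.2 or more in the other lines. ZEB1 was nearest to NTNG2 (0.88), ATOH8 (0.87) and SHF (0.83), and most opposite to MARVELD2 (-0.86), a protein of tight junctions, and PLPP2 (-0.85). Within the 10 lines the r of ZEB2 was -0.53 with MAPK13, -0.62 with KRT8 and 0.81 with FSTL1, and that of ZEB1 was 0.61 with NTNG2, 0.77 with ATOH8 and -0.50 with MARVELD2. The ZEB paralogs shared none of these neighbours, but so few were named out of 8750 genes that this says little about how alike the paralogs are.

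SNAI1 was nearest to AHCY (0.83), SPNS1 (0.82) and CAMKK1 (0.81), with ZNF836 (-0.81) and ELAC1 (-0.81) at the other end. SNAI2 was nearest to TCP11L2 (0.94), MCTP2 (0.89) and MBD2 (0.89), and most opposite to TEAD3 (-0.88) and XKR8 (-0.85). TWIST1 was nearest to ARID5B (0.87), LTBP1 (0.82), which binds latent TGF-beta, and PRICKLE1 (0.82), and most opposite to RASA3 (-0.86) and PVRL1 (-0.84). Within the 10 lines the r of TWIST1 with ARID5B was 0.99 and that of SNAI2 with MBD2 was 0.97, so these do not rest on the division by ESRP1.

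The knockout comparison asked whether loss of POU2F3 moved these genes, with the line as the unit of replication (n = 4). ZEB1, ZEB2 and SNAI2 were higher in the sgPOU2F3 column of 4 of 4 lines and SNAI1 was lower in 4 of 4. TWIST1 was lower in 3 lines, ESRP2 in 3 and ESRP1 in 2. None passed the test in the fit across all genes. The targeted gene, POU2F3, did not pass either, although its log2 ratio averaged -1.77 (limma adjusted p = 0.40). Of the 12 tuft cell markers 0 passed, although 10 had a lower value in every line. Failing this test therefore does not show that a gene was unchanged by the knockout. The fit passed 0.0161% of 12387 genes, namely KRT19 and BMF. Both calls depended on the settings, as KRT19 passed in 4 of 11 alternatives (limma adjusted p from 0.00799 to 1.0) and BMF in 2 of 11 (0.0316 to 1.0). At an unadjusted p under 0.05 ZEB2 and SNAI2 were higher, as were 4.67% of genes, and SNAI1 was lower, as were 7.08%. ZEB2 and SNAI2 each reached 1 FPKM in 4 columns, the fewest that the filter allowed. In sgNeg they did so only in NCI-H1048, so they were tested only because of their sgPOU2F3 values. Their p-values and the share beside them therefore depend on the rise itself and do not test it independently. Of all 19128 genes, 9.39% were higher in 4 of 4 lines and 8.76% lower. In these bulk samples, fewer cells of a kind and less RNA per cell cannot be told apart.

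**Figure D3:**
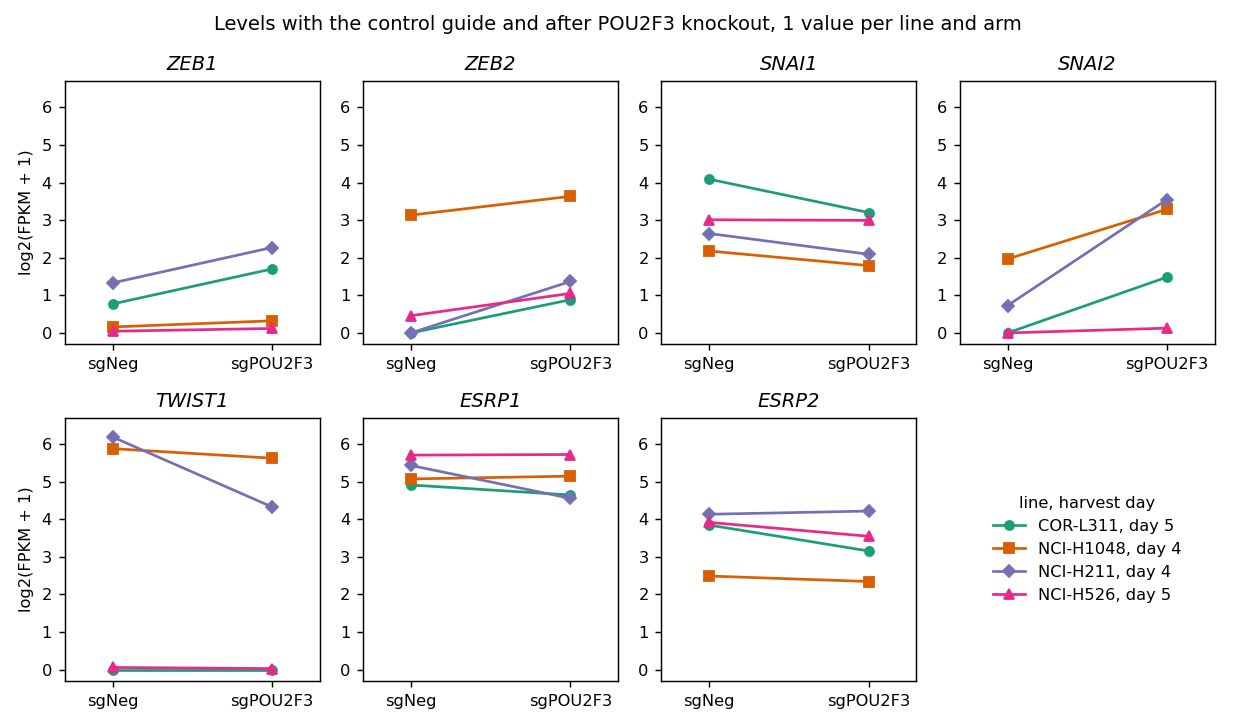
Level of each gene with the control guide (sgNeg) and after POU2F3 knockout (sgPOU2F3), as log2(FPKM + 1), 1 line per cell line with its colour and marker and 1 value per arm, the 2 guides combined. ZEB1, ZEB2 and SNAI2 slope upward in all 4 lines, SNAI1 slopes downward or is flat, and TWIST1 has its steepest slope in NCI-H211, from 71.9 to 19.1 FPKM.

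SNAI2 had the largest mean log2 ratio of the 7 genes. It went from 0.656 to 10.7 FPKM in NCI-H211, a 16.3-fold ratio, from 2.91 to 8.77 in NCI-H1048, a 3.02-fold ratio, and from a listed 0 to 1.80 in COR-L311. In NCI-H526 it went from a listed 0 to 0.0920 FPKM. The sgPOU2F3 values of NCI-H211 and NCI-H1048 thus lay above all 4 sgNeg values, while NCI-H526 stayed near 0 in each arm. Its mean log2 ratio was 1.44 ± 1.10 (SD, n = 4 lines, limma adjusted p = 0.39), and it was 0.98 without NCI-H211. A log2 ratio of at least 1 was met by SNAI2 in COR-L311, NCI-H1048 and NCI-H211, where 2.81%, 0.767% and 4.87% of tested genes met it in the same direction. SNAI2 needed its sgPOU2F3 values to be among the tested genes.

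Values of 0 need care here, because the combined columns are deeper than the sgNeg columns. In COR-L311, 21.3% of genes were listed at 0 in sgNeg and 15.9% in sgPOU2F3. Of the 4076 genes at 0 in COR-L311 sgNeg, 0.172% reached the sgPOU2F3 value of SNAI2 and 0.540% that of ZEB2. In NCI-H526, 6.22% of the genes at 0 in sgNeg reached the SNAI2 value, a larger share than for either gene in COR-L311. The parental library of COR-L311 listed SNAI2 at 0.147 FPKM.

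ZEB2 went from a listed 0 to 1.58 FPKM in NCI-H211 and from a listed 0 to 0.844 in COR-L311. It went from 0.374 to 1.07 FPKM in NCI-H526 and from 7.77 to 11.4 in NCI-H1048, a 1.47-fold ratio. The 4 log2 ratios were between 0.50 and 1.37, and only that of NCI-H211 was at least 1 on the log2(FPKM + 1) scale. In plain FPKM the NCI-H526 ratio was 2.86-fold, and a listed 0 in sgNeg leaves NCI-H211 and COR-L311 without such a ratio. Of the 4118 genes at 0 in NCI-H211 sgNeg, 0.923% reached the ZEB2 value. The mean log2 ratio was 0.84 ± 0.39 (SD, n = 4 lines, limma adjusted p = 0.38). With a pseudocount of 0.1 in place of 1 the mean log2 ratio of ZEB2 was 2.29 and that of SNAI2 was 2.65, since each has sgNeg values of 0.

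ZEB1 was 2.14-fold to 3.19-fold higher in FPKM in each line, but from low levels. It went from 1.51 to 3.83 FPKM in NCI-H211, from 0.706 to 2.25 in COR-L311, from 0.117 to 0.250 in NCI-H1048 and from 0.0321 to 0.0860 in NCI-H526. Only 3 of the 8 columns reached 1 FPKM, so ZEB1 was not among the genes tested. Its mean log2 ratio was 0.53 ± 0.47 (SD, n = 4 lines), and the limma adjusted p with no filter was 0.54. The highest sgPOU2F3 value, 3.83 FPKM, lay below the levels of parental NCI-H128 and DMS79, which keep high ESRP1, although these tables were normalized separately.

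SNAI1 was the 1 EMT factor of the 5 with a lower value in all 4 lines. It went from 16.0 to 8.20 FPKM in COR-L311, from 5.25 to 3.26 in NCI-H211, from 3.53 to 2.46 in NCI-H1048 and from 7.05 to 6.97 in NCI-H526. The sgPOU2F3 levels were 51.2%, 62.1%, 69.7% and 98.8% of sgNeg in that order, so NCI-H526 was nearly level. Levels of the arms overlapped between lines, but each ratio was formed within 1 line. The mean log2 ratio was -0.46 ± 0.36 (SD, n = 4 lines, limma adjusted p = 0.41). SNAI1 and SNAI2 had ratios of opposite sign in each of the 4 lines. In sgNeg, SNAI1 was above the parental level in 4 of 4 lines, by 0.32 to 0.97 on the log2 scale, between tables normalized separately.

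TWIST1 divided the lines into those that express it and those that do not. It went from 71.9 to 19.1 FPKM in NCI-H211, 26.5% of sgNeg, and from 57.8 to 48.3 in NCI-H1048, 83.6% of sgNeg. It was at 0.0409 and 0.0197 FPKM in NCI-H526 and listed at 0 in each arm of COR-L311. The NCI-H211 ratio, -1.86 on the log2 scale, was of 2-fold size, as were 4.26% of tested genes in that line in the lower direction. The mean log2 ratio was -0.54 ± 0.89 (SD, n = 4 lines, limma adjusted p = 0.55), and -0.09 without NCI-H211. In parental NCI-H211 TWIST1 was 18.7 FPKM, close to the sgPOU2F3 value and far below the sgNeg value, so the ratio in that line depends on which of these is the reference.

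ESRP1 stood at 42.2 FPKM in sgNeg and 22.5 in sgPOU2F3 in NCI-H211, and at 29.1 and 24.0 in COR-L311. It was level in NCI-H1048, at 32.6 and 34.4, and in NCI-H526, at 51.2 and 51.8. All 8 values were above 20 FPKM, far above the 4 parental lines with little ESRP1. The mean log2 ratio was -0.26 ± 0.43 (SD, n = 4 lines, limma adjusted p = 0.57), and -0.06 without NCI-H211.

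ESRP2 stood at 13.4 FPKM in sgNeg and 7.91 in sgPOU2F3 in COR-L311, at 14.1 and 10.7 in NCI-H526, at 4.62 and 4.08 in NCI-H1048, and at 16.5 and 17.6 in NCI-H211. The line with the largest ESRP1 difference, NCI-H211, was thus the one where ESRP2 was not lower. The mean log2 ratio was -0.28 ± 0.33 (SD, n = 4 lines, limma adjusted p = 0.51), and -0.14 without COR-L311. No ESRP ratio reached 2-fold size in any line.

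The epithelial genes known to be repressed by ZEB and SNAI factors numbered 28 tested of 30, and their median log2 ratio was 0.07, against -0.02 over all genes tested. KRT19, a keratin of simple epithelia, was the 1 gene of the list that passed, and it rose by 2.02 on the log2 scale (limma adjusted p = 0.032), higher in 4 of 4 lines. The call was lost in 7 of 11 alternatives, among them a pseudocount of 0.1 (adjusted p = 0.207), no filter (0.142), and leaving out COR-L311 (0.277), NCI-H1048 (0.169) or NCI-H526 (0.136). Of the 3 lines where the log2 ratio of SNAI2 was at least 1, CDH1 was higher in NCI-H211 and NCI-H1048 and lower in COR-L311. CDH1 stood at 55.3 FPKM in sgNeg and 196 in sgPOU2F3 in NCI-H211, at 17.5 and 30.6 in NCI-H1048, at 164 and 175 in NCI-H526 and at 26.6 and 24.5 in COR-L311. The mean CDH1 log2 ratio was 0.64 ± 0.86 (SD, n = 4 lines, limma adjusted p = 0.47). The keratin KRT8 had 300 FPKM in sgNeg of NCI-H211 and 1375 in sgPOU2F3, and 53.0 and 184 in NCI-H1048. The KRT8 values were 169 and 191 in NCI-H526 and 565 and 460 in COR-L311, so that line had the lower value after knockout. MUC1, a cell surface mucin, was higher in 4 of 4 lines, and its log2 ratio averaged 1.12 (limma adjusted p = 0.31). CDS1, lower in 4 of 4 lines, had a mean of -0.35 (limma adjusted p = 0.42), and CRB3 a mean of -0.21. Of the 28 tested, 2 were higher in 4 of 4 lines and 1 lower, as were 9.81% and 12.9% of all genes tested.

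Of 25 mesenchymal genes raised in EMT, 10 were tested and 0 passed. The median log2 ratio of the 10 was 0.95, with 2.28 in NCI-H211, 0.35 in NCI-H1048, 0.08 in NCI-H526 and -0.19 in COR-L311. Without NCI-H211 the median of the 7 genes then tested was 0.26, without NCI-H1048 it was 0.23, and over all 25 genes with no filter it was 0.19. In NCI-H211 the intermediate filament gene VIM went from 1.64 to 101 FPKM, FSTL1 from 4.83 to 326 and TAGLN, an actin-binding protein of smooth muscle, from 3.72 to 50.3. In that line the fibroblast markers summed to 10.9 FPKM in sgNeg and 16.9 in sgPOU2F3, with LUM from 0.101 to 12.3 and DCN from 7.26 to 0.537, and their part in the result was not tested. NCI-H1048 already had VIM at 507 FPKM in sgNeg and reached 1968. VIM was lower in COR-L311, at 0.335 and 0.0226 FPKM, and in NCI-H526, at 0.650 and 0.483. FSTL1 and TAGLN had log2 ratios between -0.16 and 0.55 in the other 3 lines. CD44, the hyaluronan receptor, was higher in 4 of 4 lines, by a mean of 1.94 ± 0.69 (SD, n = 4 lines, limma adjusted p = 0.23), and S100A4 had a mean of 1.29 (limma adjusted p = 0.39). THY1 went the other way, with a mean of -0.32 (limma adjusted p = 0.42), and CDH2 had 0.48 (limma adjusted p = 0.43). Of the 10 tested, 3 were higher in 4 of 4 lines and 0 lower, as were 9.81% and 12.9% of all genes tested. NCI-H211 thus had higher values of epithelial keratins and CDH1 and of mesenchymal VIM in the same column.

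**Figure D4:**
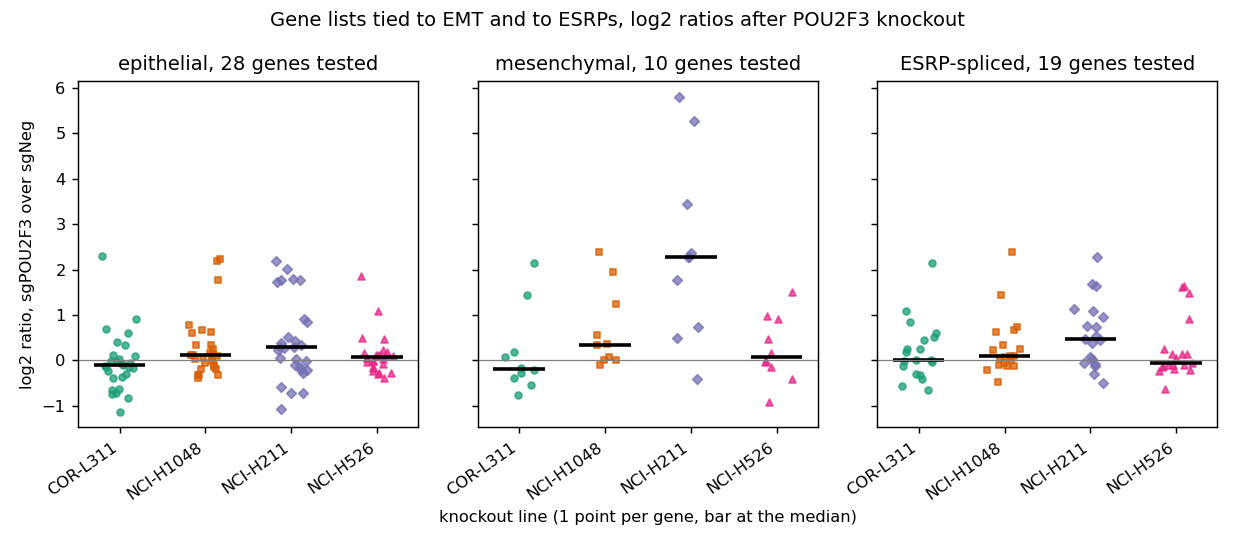
Log2 ratio of sgPOU2F3 over sgNeg (vertical axis, log2(FPKM + 1) scale) for tested genes of the epithelial, mesenchymal and ESRP-spliced lists in each knockout line, 1 point per gene and a bar at the median. The mesenchymal median is 2.28 in NCI-H211 and between -0.19 and 0.35 in the other 3 lines, and the epithelial medians lie between -0.11 and 0.28.

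Of 20 genes whose transcripts the ESRPs are known to splice, 19 were tested and 0 passed, with a median log2 ratio of 0.25. Their gene-level values do not show which splice form was made. Of the 19, 5 were higher in 4 of 4 lines (CD44, FGFR1, FGFR3, ENAH and EXOC7) and 3 lower (MAP3K7, EPB41L5 and RALGPS2), as were 9.81% and 12.9% of all genes tested. For FGFR3 the log2 ratio averaged 0.88 ± 0.45 (SD, n = 4 lines, limma adjusted p = 0.37) and for EXOC7 0.27 (limma adjusted p = 0.41). FGFR1, a fibroblast growth factor receptor, stood at 1.66 and 7.25 FPKM in the arms of NCI-H526 and at 6.97 and 16.0 in those of COR-L311. FGFR2, whose alternative exons are the best known ESRP targets, stood at 28.9 and 80.0 FPKM in NCI-H1048 and at 0.959 and 5.10 in NCI-H211. It was level in COR-L311, at 1.86 in each arm, and slightly lower in NCI-H526, at 2.47 and 2.15. The 19 tested splicing regulators with ESRP-like or opposing roles had a median of -0.05 and 0 passed. RBM47, an RNA-binding protein of epithelia, had a mean of -0.19 (limma adjusted p = 0.52), and MBNL3 had -0.25 (limma adjusted p = 0.48).

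Ligands, receptors and SMADs of the TGF-beta pathway, a known inducer of SNAI and ZEB genes, numbered 13, with 9 tested, 0 past the threshold and a median log2 ratio of 0.18. The NCI-H211 values stood apart. In NCI-H211 the ligand gene TGFB2 went from 0.237 to 82.5 FPKM, the receptor gene TGFBR2 from 0.217 to 16.8 and the feedback inhibitor SMAD7 from 2.90 to 28.3. In COR-L311 TGFB2 stood at 0.699 and 3.70 FPKM, and it was 0.547 or less in NCI-H1048 and NCI-H526, and TGFBR2 was 1.02 or less in the other 3 lines. In the other lines SMAD7 was between 7.59 and 21.4 FPKM in either arm. SMAD7 had a mean of 0.94 (limma adjusted p = 0.48). TGFB2 and TGFBR2 did not pass the filter on low values.

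Of 14 epithelial transcription factors that oppose EMT, 11 were tested and 0 passed, with a median of -0.05. KLF5 went from 6.43 to 44.6 FPKM in NCI-H211, 3.21 to 14.2 in COR-L311 and 21.8 to 40.5 in NCI-H1048, and was level in NCI-H526 at 21.0 and 20.4 (mean log2 ratio 1.32, limma adjusted p = 0.40). EHF, an ETS factor of epithelia, was lower in 4 of 4 lines, with 6.75 and 1.19 FPKM in the arms of NCI-H211 and 78.3 and 41.9 in those of COR-L311 (mean -0.85, limma adjusted p = 0.40). OVOL2, the nearest neighbour of ESRP1 across the parental lines, had a mean of -0.24. OVOL2 and ESRP1 both had their lowest ratio in NCI-H211, where OVOL2 went from 27.1 to 16.9 FPKM.

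Of 16 other EMT transcription factors 8 were tested and 0 passed, with a median of -0.16, and TCF3 had the smallest p in the list (mean -0.29, limma adjusted p = 0.47). In COR-L311, the line whose POU2F3 RNA differed least, SOX4 went from 28.6 to 145.8 FPKM and TCF4, an E protein partner of TWIST1, from 7.97 to 28.1. In the other 3 lines SOX4 was lower, with log2 ratios of -0.97 in NCI-H211, -0.53 in NCI-H1048 and -0.08 in NCI-H526. The TCF4 ratios there were -0.39, 0.10 and -0.05 in the same order. TWIST2, the paralog of TWIST1, was listed at 0 in all 8 columns. The 12 corepressors of ZEB and SNAI factors were all tested, 0 passed and their median was -0.03, with SMARCA4 at -0.20 (limma adjusted p = 0.44) and KDM1A at -0.17 (limma adjusted p = 0.51).

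In the parental comparison the same lists also held 0 genes past the threshold. The 28 epithelial genes tested had a median log2 difference of 1.35 in favour of the 4 knockout-set lines and the 23 mesenchymal genes a median of -0.25, against -0.0027 over all genes tested. The epithelial list summed to 974 to 2291 FPKM in the 4 lines and to 25.0 to 3252 in the 10. The 10 include the 4 lines with little ESRP1, and their range reaches above that of the knockout-set lines. The 12 epithelial transcription factors tested that oppose EMT had a median difference of 1.23. At an unadjusted limma p under 0.05, 4 of them were higher and 1 lower, as were 609 and 537 of 13226 genes tested. The 4 higher were KLF4 by 2.49 (limma adjusted p = 0.24), EHF by 3.62 (limma adjusted p = 0.30), GRHL2 by 2.56 (limma adjusted p = 0.30) and OVOL1 by 1.48 (limma adjusted p = 0.55). The 1 lower had a larger unadjusted p than these 4, so the rule for naming genes did not reach it. GRHL2, a factor known to oppose ZEB1, was 11.5 to 18.6 FPKM in the 4 lines. It was 0.0149 or less in the 4 lines with little ESRP1, and 0.0229 to 26.8 in the remaining 6.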

How the data were processed

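The submitters' processing notes name the build hg19 and 3 tools, Cuffdiff, Cufflinks and TopHat2. Their roles, order, versions and annotation are not given in the sources used here. The authors deposited FPKM, in 1 table for each knockout line (1 sgNeg column and 1 column for the 2 guides, merged by an unstated method) and 1 for the 14 parental lines. Values were tested as log2(FPKM + 1) with limma 3.58.1 in R 4.3.3, two-sided, with a variance trend and Benjamini-Hochberg adjustment over all genes that reached 1 FPKM in 4 or more columns, threshold 0.05. The knockout fit had line and arm as terms (8 columns, 3 residual degrees of freedom). The parental fit compared 4 with 10 libraries. The plan allowed for separate guides, which the tables do not hold. Nothing says that libraries came from separate cultures, so p-values measure the spread between lines only. The members and the gene lists were chosen with earlier results of these data known. Beyond the 7 members, genes were named by rule, from each list those with the smallest p, and for each member the 3 genes most and the 2 least like it, of which 1 is not reported here. A few named for their size in 1 line (VIM, TAGLN, FSTL1, CRB3, TGFB2, TGFBR2, FGFR2, SOX4, LUM, DCN and KRT8 among them) were chosen after their values were seen. Depth was estimated from the steps seen between low FPKM values, with GENCODE lengths on GRCh38. Both fits were tested on simulated data. Alternatives were another pseudocount, other filters, quantile normalization, no trend, no line term and leaving out each line.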

Additional observations from a re-analysis of the deposited data

Results flagged for a closer look

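In 3 of 21 groups of values checked, 1 line lay far from the others of its group. The rule flags about 1 in 20 groups by chance only where values are normally distributed. Each of the 3 flagged groups holds lines with the gene near 0 FPKM, so their number cannot be set against that rate. ZEB1 in the 4 parental knockout-set lines stood at 1.08 in NCI-H211 (log2(FPKM + 1)), and its gap to the nearest line took up 0.902 of the group's range, above the critical 0.829. ZEB2 in the same lines stood at 2.21 in NCI-H1048, with a gap of 0.969 of the range. The TWIST1 log2 ratio after knockout was -1.86 in NCI-H211, with a gap of 0.864 of the range. NCI-H211 also had the lowest POU2F3 level relative to sgNeg, 6.95%, and the part of that in the TWIST1 value was not tested.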

How the results depend on the processing

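The number of the 7 genes past the threshold was 0 under each of 11 alternatives of the knockout comparison and 19 of the parental one, among them the knockout fit with no replicate block (no line term), which gave 0. In the knockout comparison the mean ratio of each gene kept its direction in every alternative that could be fitted, and adjusted p in limma ran from 0.35 to 1.0. Leaving out NCI-H211 or NCI-H1048 left 3 of the 7 genes testable, because the filter still asked for 4 columns. Between parental groups 7 of 132 alternative differences changed sign. These were the SNAI1 difference, which ran from -0.66 to 0.093 on leaving out 1 line, and the TWIST1 difference, which ran from -0.92 to 0.89 and was -0.91 with a pseudocount of 0.1. The TWIST1 difference was -0.54 without NCI-H211, -0.16 without DMS79, -0.03 without NCI-H510 and -0.17 without NCI-H82. The calls of KRT19 and BMF over all genes numbered 2, and 0 with a pseudocount of 0.1, no filter, no variance trend, no line term or without COR-L311, NCI-H1048 or NCI-H526. Medians of the gene lists were recomputed after the data were seen. Values near 0 FPKM are limited by depth, and single lines carry no error.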
